A study of Macaca fascicularis with 2 samples.

Results

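Meiotic recombination begins when SPO11 cuts both strands of the chromosome, at hotspots that in primates are marked by the histone methyltransferase PRDM9. The broken ends are coated by single-strand binding proteins and recombinases, search for the homologous chromosome, and are repaired, some of them as crossovers. In the female this takes place in the fetal ovary, while the synaptonemal complex is built between homologues, and it ends before oocytes arrest and follicles form. Genes for these steps were followed through the germ cells of fetal ovaries of the monkey Macaca fascicularis. They are a set of 10, chosen by name: PRDM9 for hotspots, SPO11 and MEI1 for break formation, DMC1 and RAD51AP2 for strand exchange, MEIOB and SPATA22 for protection of single-stranded DNA, and TEX11, MSH4 and MSH5 for crossovers. Of these, 9 are rows of the 18446 genes of the table, and MSH5 was not analysed here.

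RNA was sequenced in single cells of both ovaries of 1 fetus at embryonic day 84 (E84) and 1 at embryonic day 116 (E116), 1 droplet-based 3′ library each, with no treatment in either. The cells of both stages are in 1 table of raw UMI counts (unique molecular identifiers, 1 per captured RNA molecule). Cell barcodes end in 1 or 2, and which ending is which stage was not assigned, so the cells were treated as a single pool. Values are also given by ending, as unlabelled sets. A difference between endings can be one of fetus, stage or library, which cannot be told apart. There are no replicates, so no test was made, and every interval below is an exact 95% interval for counting error only.

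The table holds 20967 cells with a median of 3756 UMIs, 3130 in the 10621 cells of ending 1 and 4555.5 in the 10346 of ending 2. The endings share 27 barcodes, which 7 of the germ cells carry. Cells of 1000 UMIs or more were called germ cells from DDX4, DAZL and the other germ and stage markers, at 15 or more of these UMIs per 10000 and at least 5 UMIs, and 3476 cells passed. Stage groups were then cut from the summed UMIs of marker lists that hold none of the 9 genes. Premeiotic germ cells (559) had at least 3 UMIs, and at least 3 per 10000, of STRA8, ZGLP1, REC8, RFX6 and ESX1 together. This rate was not below that of the mitotic markers. They had under 20 synaptonemal UMIs per 10000 and were without oocyte markers by the limits given below. A minimum of 3 UMIs is met more easily in deep cells, and its part in the depth of this group was not tested. Synaptonemal-intermediate (427) and synaptonemal-high cells (1104) had 20 to 40 and at least 40 UMIs per 10000 of SYCP1, SYCP2, SYCP3, SYCE1, SYCE2, SYCE3 and TEX12. They are called without oocyte markers where they had under 2 UMIs, or under 2 per 10000, of oocyte genes such as FIGLA and GDF9, so they can hold some such UMIs. A further 121 synaptonemal-high cells were at or over both limits. Oocyte-marker cells (425) had at least 10 oocyte UMIs per 10000 and under 40 synaptonemal ones, and 180 mitotic germ cells had UMIs of NANOG, DPPA4 and related genes. These groups are ranges on marker counts, not cell types, and 279 germ cells lay within 20% of the cut at 40.

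The groups differed in depth and in ending. The median was 13238 UMIs in premeiotic, 2471 in synaptonemal-high and 8686 in oocyte-marker cells. Of the mitotic cells 178 carried ending 1, and of the oocyte-marker cells 396 carried ending 2. Markers of the groups separated as the cuts require: SYCP3 was at 268 CPM (counts scaled to 1000000 UMIs) in premeiotic, 2475 in synaptonemal-high and 176 in oocyte-marker cells, and FIGLA at 3.43, 28.7 and 574 CPM. The oocyte genes BMP15 and OOSP2 had no UMI in synaptonemal-high cells and 9 and 13 UMIs in oocyte-marker cells. Stromal marker UMIs had medians of 2.05, 4.80 and 0.67 per 10000 in the same order. Their part in the results was not tested, and both counts of 9 genes given below were the same without the germ cells that carried somatic markers.

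The 9 genes were found mainly in germ cells. Between 75.5% of the UMIs (TEX11) and 88.1% (SPO11) came from the 3476 germ cells. PRDM9 had 386 UMIs in the whole table, MSH4 307, MEI1 578, DMC1 794 and SPO11 1441. MEIOB had 7224, TEX11 6840, SPATA22 11927 and RAD51AP2 34615. The study removed cells with more than 3000 genes from its own analysis. Those cells hold 64.2% of all UMIs and between 54.9% (PRDM9) and 70.4% (SPATA22) of the UMIs of the 9 genes, and they were kept here.

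All 9 genes were at least 2-fold higher in synaptonemal-high than in premeiotic germ cells, and 8 of them at least 4-fold. The background is 14.3% of 10675 genes at least 2-fold higher, 3.69% at least 4-fold higher and 16.2% at least 2-fold lower. The median log2 ratio of the 9 genes was 3.84, against −0.06 over all genes. The ratios ran from 1.13 on the log2 scale for TEX11 to 7.15 for SPO11. The count was 9 of 9 within each ending as well, where the share over all genes was not counted.

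PRDM9, which writes the hotspot mark, was at 0.799 CPM (0.321 to 1.65) in premeiotic cells, from 7 UMIs, with 0.866 and 0.725 CPM in endings 1 and 2. In synaptonemal-high cells it was at 43.4 CPM (38.4 to 48.8), with 56.3 and 23.4 CPM by ending. The log2 ratio was 5.76 (4.70 to 7.09), and the intervals of the groups did not overlap in either ending. The mitotic group had no PRDM9 UMI in 180 cells, which allows up to 1.26 CPM.

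SPO11, the catalytic subunit that makes the break, was at 0.914 CPM (0.394 to 1.80) in premeiotic cells, with 0.866 and 0.967 CPM by ending. This was no higher than in granulosa cells, at 1.27 CPM (0.738 to 2.03). It was at 129.9 CPM (121 to 139) in synaptonemal-high cells, with 98.2 CPM in ending 1 and 178.5 CPM in ending 2. The log2 ratio of 7.15 (6.17 to 8.37) was the largest of the 9. MEI1, which is needed for breaks to form, was detectable earlier, at 3.35 CPM in mitotic and 4.80 CPM (3.46 to 6.48) in premeiotic cells. It reached 43.5 CPM (38.5 to 49.0) in synaptonemal-high cells, with 54.5 and 26.7 CPM by ending, and a log2 ratio of 3.18 (2.71 to 3.69).

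DMC1, the meiosis-specific recombinase, was at 5.03 CPM (3.65 to 6.75) in premeiotic and 72.2 CPM (65.7 to 79.2) in synaptonemal-high cells, with 92.9 and 40.4 CPM in the latter by ending. Its log2 ratio was 3.84 (3.40 to 4.33). RAD51AP2, which encodes a recombinase-associated protein, was at 33.3 CPM (29.6 to 37.4) in premeiotic cells and 3563 CPM (3517 to 3610) in synaptonemal-high cells. By ending the latter were 4241 and 2524 CPM, and the log2 ratio was 6.74 (6.57 to 6.91). The premeiotic level of RAD51AP2 was below that of granulosa cells, at 46.4 CPM (42.8 to 50.2), and near that of stroma, at 27.4 CPM (25.1 to 29.9), and the mitotic level was 44.4 CPM, so neither was above granulosa cells. By ending premeiotic cells were at 39.2 and 26.8 CPM and granulosa cells at 61.5 and 30.9 CPM. The source of these UMIs was not tested.

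MEIOB and SPATA22 encode partners in 1 complex that binds single-stranded DNA. Both were present before synaptonemal genes were high. MEIOB was at 51.6 CPM (47.0 to 56.6) in premeiotic cells, against 11.1 CPM in granulosa cells, and at 507 CPM (489 to 525) in synaptonemal-high cells. The premeiotic level was 76.2 CPM in ending 1 and 24.2 CPM in ending 2. SPATA22 was at 150 CPM (142 to 158) and 624 CPM (604 to 644) in the same groups, against 8.35 CPM in granulosa and 21.9 CPM in stromal cells. The log2 ratios were 3.30 (3.15 to 3.44) for MEIOB and 2.06 (1.97 to 2.15) for SPATA22. The endings differed in opposite directions for this pair in synaptonemal-high cells. MEIOB was at 632 CPM in ending 1 and 314 CPM in ending 2, and SPATA22 at 579 and 692 CPM.

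TEX11, an X-linked crossover factor, had the smallest ratio of the 9. It was at 43.9 CPM in mitotic, 149 CPM (141 to 157) in premeiotic and 326 CPM (312 to 340) in synaptonemal-high cells, against 4.99 CPM in granulosa cells. The log2 ratio of 1.13 (1.03 to 1.23) concerns shares of a cell's UMIs. Counted as UMIs per cell, TEX11 was at 2.33 in premeiotic and 1.85 in synaptonemal-high cells, a log2 ratio of −0.33, and premeiotic cells had the greater depth. By ending that ratio was −0.57 and 0.33. SPATA22 on the same scale was at 2.35 and 3.54 UMIs per cell, a log2 ratio of 0.60, which is under 2-fold. MSH4, which with MSH5 stabilises crossover intermediates, was at 1.83 CPM (1.04 to 2.97) in premeiotic and 29.3 CPM (25.2 to 33.9) in synaptonemal-high cells. It was close in both endings, at 27.1 and 32.7 CPM in the latter cells, and its log2 ratio was 4.00 (3.27 to 4.84).

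**Figure D1:**
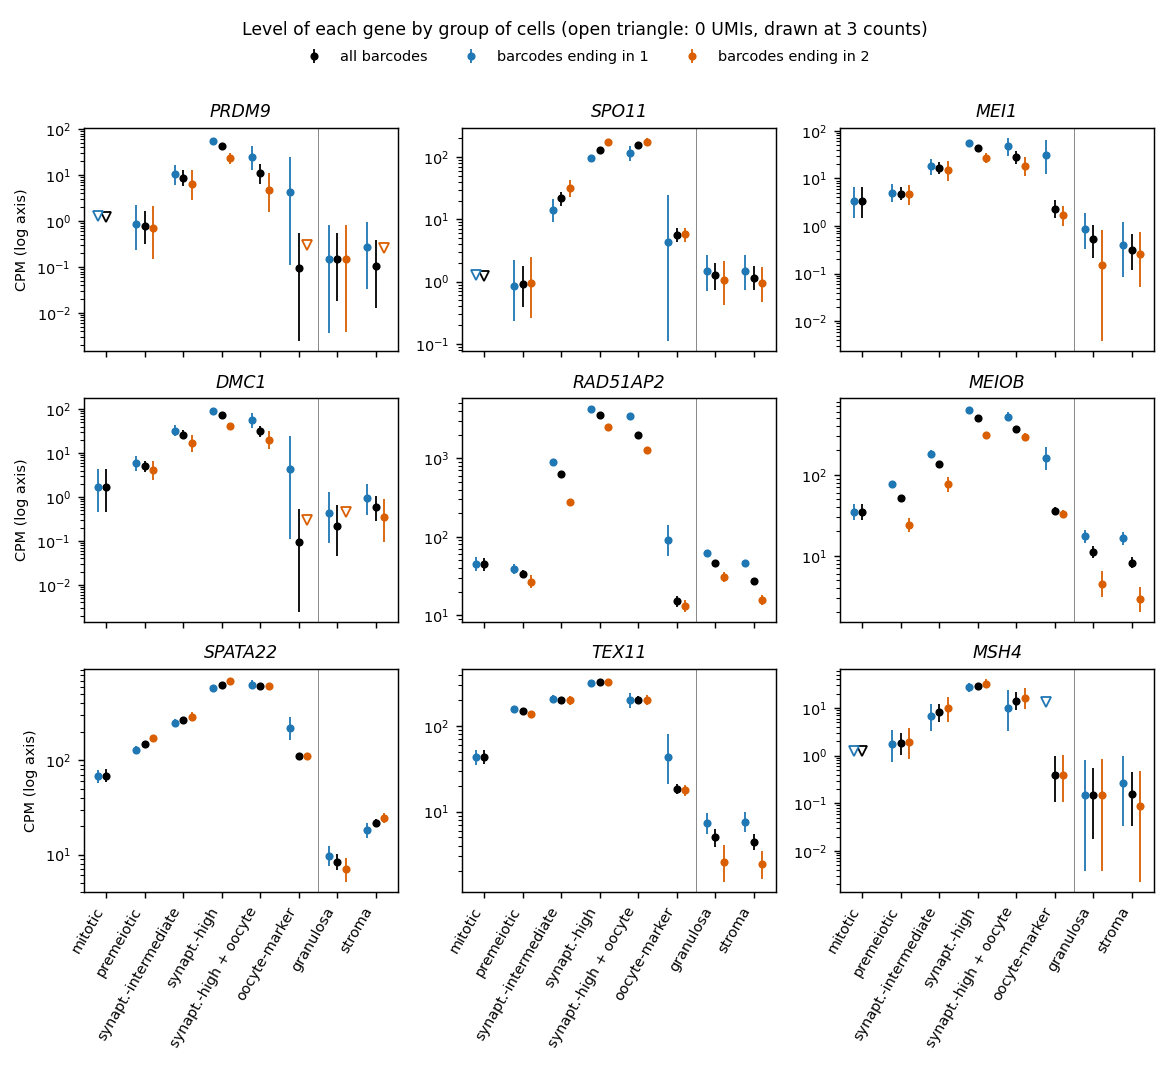
CPM (log axis) of each of the 9 genes in 6 groups of germ cells and in granulosa and stromal cells, for all barcodes and for each barcode ending with at least 20 cells. Bars are exact 95% Poisson intervals, and open triangles mark groups with 0 UMIs, drawn at the limit of 3 counts. Each gene is highest in a synaptonemal-high group, with SPO11 at 129.9 without and 157 with oocyte markers, and the levels of PRDM9 and DMC1 in oocyte-marker cells are at or near 0.

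Since shallow cells miss rare RNAs, each cell was also thinned to 2000 UMIs, which kept 660 of the synaptonemal-high, 546 of the premeiotic and 1351 of the granulosa cells. A SPO11 UMI was then seen in 21.2% (18.2 to 24.5) of synaptonemal-high cells, 0.366% of premeiotic and 0.296% of granulosa cells. Without thinning the share in synaptonemal-high cells was 32.0%. DMC1 was seen in 15.3% (12.6 to 18.3) of synaptonemal-high cells, PRDM9 in 8.64% (6.61 to 11.04), MEI1 in 8.18% (6.21 to 10.5) and MSH4 in 5.76% (4.11 to 7.82). By ending the shares in synaptonemal-high cells were 18.4% and 28.7% for SPO11, 17.5% and 9.39% for DMC1, 9.81% and 3.87% for MEI1 and 5.64% and 6.08% for MSH4. PRDM9 was seen in 11.3% (8.58 to 14.5) of 479 cells of ending 1 and in 3 of 181 of ending 2, which is 1.66% (0.343 to 4.77), and the last interval overlaps that of premeiotic cells of the same ending (0 to 1.76). The shares in premeiotic cells were 1.10% for DMC1, 0.916% for MEI1 and 0.183% for MSH4, and 0 of 546 for PRDM9, which allows up to 0.549%. MEIOB was seen in 60.9% of synaptonemal-high and 11.4% of premeiotic cells, SPATA22 in 66.5% and 26.6%, and TEX11 in 47.0% and 24.9%.

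RAD51AP2 was seen in 67.7% (64.0 to 71.3) of synaptonemal-high cells, in 6.23% (4.35 to 8.59) of premeiotic and in 10.7% (9.06 to 12.4) of granulosa cells. Its counts were uneven among synaptonemal-high cells thinned to the same depth. These cells still differ in ending, in original depth and in synaptonemal UMIs. The counts ran from 0 to 57 UMIs in 2000, with a median of 3, quartiles of 0 and 10, and no UMI in 32.3% of the 660 cells. Of the 5 genes with the fewest UMIs (SPO11, PRDM9, MEI1, DMC1 and MSH4), none was seen in 54.2% of these cells, 1 in 34.4% and 2 or more in the others. In 70 of 72 ordered pairs of the 9 genes, the share of cells with the second gene had overlapping intervals in cells with and without the first. With the endings pooled, the exception was RAD51AP2 and MEIOB, in both orders. A MEIOB UMI was in 65.1% (60.5 to 69.5) of cells with RAD51AP2 and in 52.1% (45.2 to 59.0) of cells without it. For this pair the intervals overlapped within each ending. They were at 68.3% (63.1 to 73.2) and 59.3% (50.5 to 67.6) in ending 1 and at 54.4% (44.3 to 64.2) and 39.7% (28.8 to 51.5) in ending 2. SPO11 and MEIOB were apart in both orders within ending 2. A MEIOB UMI was there in 65.4% (50.9 to 78.0) of cells with SPO11 and in 41.1% (32.5 to 50.1) of cells without it. In ending 1 these intervals overlapped, at 72.7% (62.2 to 81.7) and 64.2% (59.2 to 69.0).

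**Figure D2:**
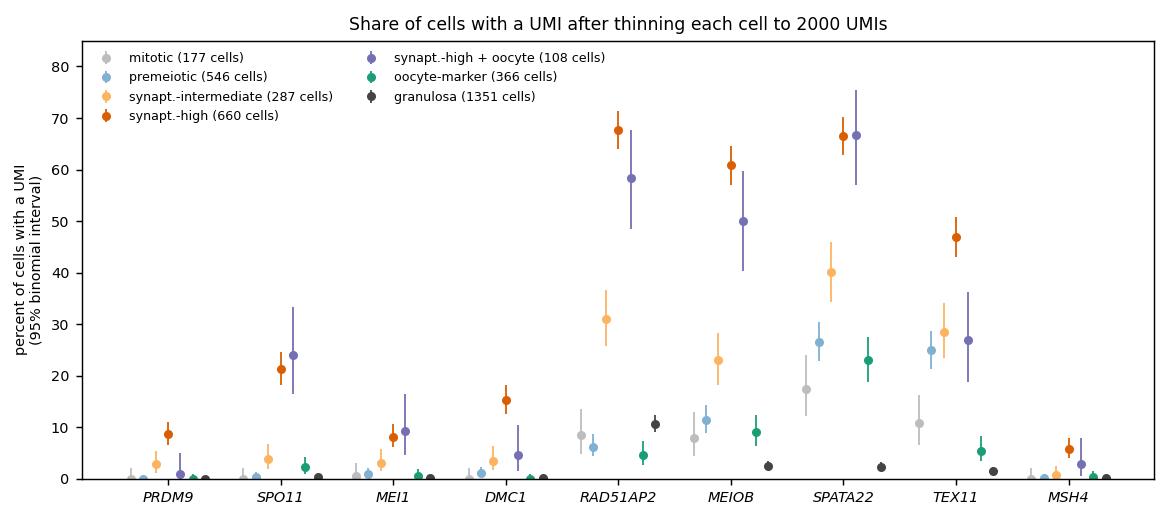
Percent of cells with a UMI of each gene after every cell was thinned to 2000 UMIs, by group of cells, with exact 95% binomial intervals. Synaptonemal-high cells (660) stand above premeiotic cells (546) for every gene, and granulosa cells (1351) are shown for comparison, at up to 10.7% for RAD51AP2.

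To see whether the genes came up together, all 3476 germ cells with the needed markers were placed in 15 bins. Cells without oocyte markers were ordered by increasing synaptonemal UMIs in 9 bins, and cells with oocyte markers by decreasing ones in 6. This order is one of marker counts and not a measured time. The highest bin for 7 of the genes was the last one without oocyte markers, with at least 110 synaptonemal UMIs per 10000 (191 cells, 160 of them from ending 1). There PRDM9 was at 100.5 CPM (81.3 to 123), DMC1 at 125 CPM (103 to 149), MSH4 at 50.8 CPM (37.4 to 67.3) and MEI1 at 61.3 CPM (46.6 to 79.3). MEIOB was at 768 CPM, SPATA22 at 930 CPM and TEX11 at 445 CPM in the same bin.

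RAD51AP2 was highest 1 bin earlier, at 80 to 110 synaptonemal UMIs, with 5406 CPM (5296 to 5517), against 4714 CPM in the bin after it. SPO11 was highest 1 bin later, in the 60 cells with oocyte markers and at least 60 synaptonemal UMIs. It was there at 214 CPM (181 to 251) from 149 UMIs. In the bin from 110 it was at 153 CPM (129 to 180) and in the bin from 80 at 175 CPM (156 to 196). The last of these intervals overlaps that of the highest bin. The highest bin of both genes differed between the endings, but several of the bins compared had overlapping intervals. In ending 1, SPO11 was highest in the bin from 110, at 138 CPM (112 to 169), against 134 CPM (95.3 to 183) in the oocyte-marker bin. In ending 2 it was highest in the oocyte-marker bin, at 272 CPM (223 to 327), against 258 CPM (220 to 301) from 80. RAD51AP2 was highest from 80 in ending 1. In ending 2 it was highest from 110, at 4618 CPM (4360 to 4887), against 4374 CPM (4214 to 4540) from 80. TEX11 was highest from 110 in ending 1. In ending 2 it was highest from 80, at 415 CPM, against 413 CPM from 110.

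The genes differed in how early they were seen. In the bin of 0 to 2.5 synaptonemal UMIs, TEX11 was already at 15.01% of its highest bin, SPATA22 at 8.32% and MEIOB at 4.95%, while SPO11 was at 0.214% and PRDM9 at 0. At 20 to 40 synaptonemal UMIs, TEX11 was at 46.0% of its highest bin, SPATA22 at 28.8%, MEI1 at 26.9% and DMC1 at 20.8%. In that bin SPO11 was at 10.2% and PRDM9 at 8.73%. MEI1 and TEX11 first passed 50% in the bin from 40. SPO11, RAD51AP2, MEIOB, SPATA22 and MSH4 first did so in the bin from 60, and PRDM9 and DMC1 in the bin from 80. This order depended on the ending. In ending 1, DMC1 already passed 50% in the bin from 60, at 77.7 CPM against 143 CPM in its highest bin. In ending 2, RAD51AP2 and MSH4 first did so in the bin from 80, and PRDM9 in the bin from 110. In that ending RAD51AP2 was at 2296 of 4618 CPM and MSH4 at 29.5 of 69.4 CPM in the bin from 60.

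Once oocyte markers were present, the genes also parted. In the first such bin PRDM9 was at 21.4% of its highest bin and DMC1 at 42.6%. The values there were 50.9% for MSH4, 56.2% for MEI1, 58.1% for RAD51AP2, 58.6% for MEIOB, 64.5% for TEX11 and 83.4% for SPATA22. In cells with oocyte markers and 20 to 40 synaptonemal UMIs, SPATA22 was still at 34.1%, MEIOB at 25.1% and SPO11 at 23.4% of their highest bins. PRDM9 was at 0.664%, DMC1 at 2.67% and MSH4 at 6.57% in those cells. These bins differ in ending and depth. In the first with oocyte markers 29 of 60 cells carried ending 2, and the median was 9631.5 UMIs, against 2669 in the bin from 110. By ending PRDM9 was at 34.4 and 12.3 CPM in the former, against 114 and 65.6 CPM in the latter. DMC1 was at 65.3 and 44.4 CPM against 143 and 77.2 CPM.

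**Figure D3:**
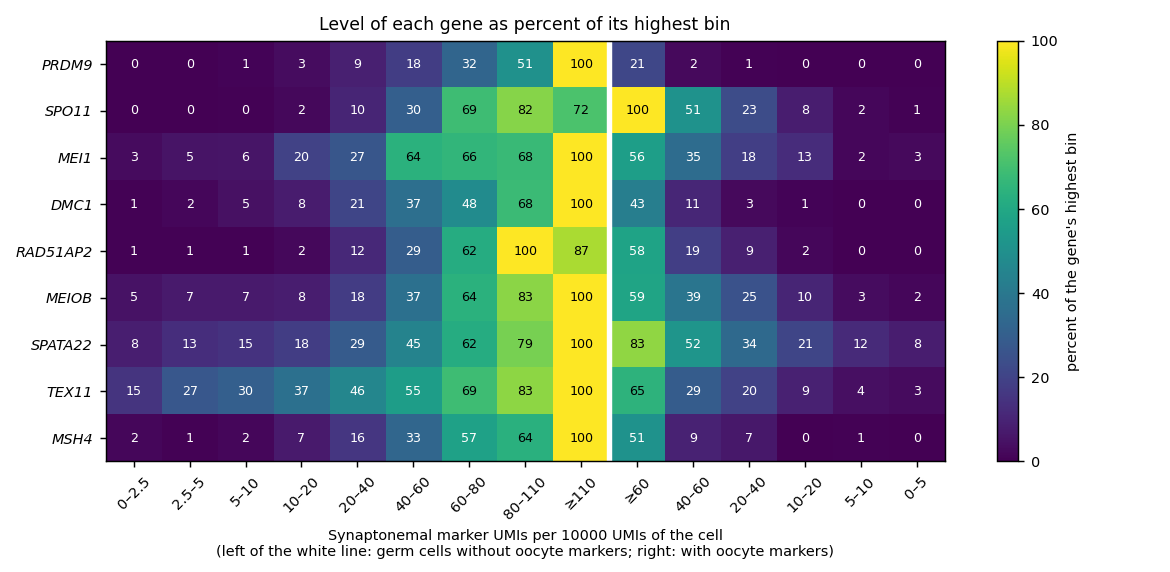
Level of each gene in 15 bins of germ cells, as percent of the gene's own highest bin. Bins run along synaptonemal marker UMIs per 10000, in rising order in cells without oocyte markers (left of the white line) and in falling order in cells with them (right). PRDM9 and DMC1 are at 21.4% and 42.6% in the first bin with oocyte markers, where SPO11 is at its highest. Endings are pooled, and the bins differ in ending and depth.

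Synaptonemal-high cells with and without oocyte markers were set side by side using only cells of 5000 UMIs or more (85 and 335 cells). This floor did not make depth equal, with medians of 16054 UMIs with and 12660 without oocyte markers. Here 3 genes were at least 2-fold lower with oocyte markers, against a background of 3.19% of 8514 genes. PRDM9 was at 10.5 CPM with and 42.8 CPM without oocyte markers, a log2 ratio of −2.03 (−2.89 to −1.27). DMC1 was at 26.6 and 70.8 CPM, with a log2 ratio of −1.42 (−1.94 to −0.93), and MSH4 at 14.0 and 31.0 CPM, with −1.15 (−1.90 to −0.47). RAD51AP2 was at 1991 and 3978 CPM, just short of 2-fold lower. Its log2 ratio was −0.998 (−1.06 to −0.94).

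The level of RAD51AP2 also differed between cells of unlike depth. Among synaptonemal-high cells without oocyte markers it was at 2349 CPM (2275 to 2425) in the 769 cells of 1000 to 5000 UMIs and at 3978 CPM (3921 to 4036) in the 335 deeper ones. MEIOB was at 573 CPM (536 to 611) and 484 CPM (464 to 505) in the same cells, and SPO11 at 119.5 CPM (103 to 138) and 133 CPM (123 to 144). The depth classes differed in ending too. Of the 335 deeper cells 207 carried ending 1 and 128 ending 2, against 863 and 241 in the whole group. All 3 genes differed between the endings in this group. Levels by depth were not split by ending, so depth and ending cannot be told apart here.

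SPO11 did not follow DMC1 and PRDM9 in this comparison. It was at 155 CPM with and 133 CPM without oocyte markers, a log2 ratio of 0.22 (−0.01 to 0.44), and this interval lies apart from those of both genes. SPATA22 was at 611 and 634 CPM, with a log2 ratio of −0.05 (−0.16 to 0.06). MEI1, TEX11 and MEIOB lay between, with log2 ratios of −0.78, −0.72 and −0.42. The endings had unlike shares of the 2 groups, 33 and 52 of the cells with and 207 and 128 of those without oocyte markers. Within endings 1 and 2 the log2 ratios were 0.40 and −0.08 for SPO11, −1.21 and −2.63 for PRDM9, −0.99 and −1.31 for DMC1, and −1.56 and −1.13 for MSH4. DMC1 was thus just under 2-fold lower in ending 1. The cells with oocyte markers held at most 5 UMIs of PRDM9 in ending 2 and at most 5 of MSH4 in ending 1. The intervals of SPO11 lay apart from those of PRDM9 and DMC1 in each ending. RAD51AP2 had −0.47 and −1.11, so it was over 2-fold lower in ending 2. The other genes were within 2-fold in both endings, MEI1 at −0.50 and −0.57, TEX11 −0.68 and −0.74, MEIOB −0.27 and −0.12, and SPATA22 0.10 and −0.19.

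The cells with oocyte markers had fewer synaptonemal UMIs, with a median of 58.2 per 10000 against 74.6. When both groups were limited to 40 to 80 (69 and 189 cells), a comparison chosen after the data were seen, PRDM9 was still 3.54-fold, DMC1 2.25-fold and MSH4 2.498-fold lower with oocyte markers. The log2 ratio of SPO11 was then 0.47 (0.18 to 0.74), 1.11 in ending 1 and 0.03 in ending 2. RAD51AP2 was at −0.65 (−0.72 to −0.58), and at −0.09 in ending 1. For MSH4, ending 1 held 1 UMI in the cells with oocyte markers.

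**Figure D4:**
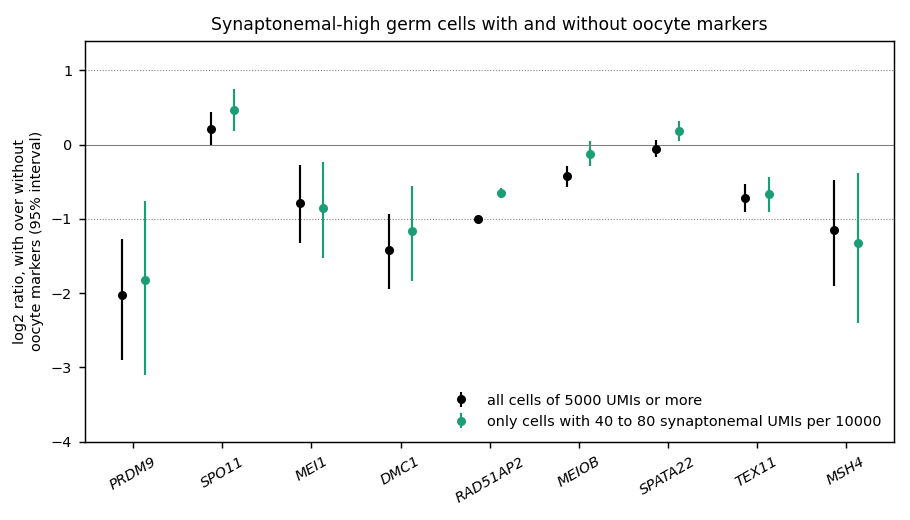
Log2 ratio of CPM between synaptonemal-high germ cells with and without oocyte markers, in cells of 5000 UMIs or more (black) and only at 40 to 80 synaptonemal UMIs per 10000 (green), with exact 95% intervals. PRDM9, DMC1 and MSH4 lie past 2-fold lower (dotted line) in both, and SPO11 is at 0.22, with an interval that reaches −0.01, and at 0.47.

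In oocyte-marker cells all 9 genes were at least 4-fold lower than in synaptonemal-high cells. The background is 25.0% of 10873 genes at least 2-fold lower, 8.19% at least 4-fold lower and 19.9% at least 2-fold higher. The median log2 ratio of the 9 genes was −4.51, against −0.15 over all genes. PRDM9 and DMC1 had 1 UMI each in the 425 oocyte-marker cells, both in ending 1, and none in the 396 cells of ending 2. Their ratios therefore have wide intervals, −8.81 (−14.1 to −6.32) for PRDM9 and −9.55 (−14.9 to −7.06) for DMC1 on the log2 scale. MSH4 had 4 UMIs, a log2 ratio of −6.25 (−8.14 to −4.87).

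Other genes of the set were still found in these cells. SPATA22 was at 112 CPM (106 to 119), which is 5.57-fold lower than in synaptonemal-high cells and above the 8.35 CPM of granulosa cells. As UMIs per cell it was at 2.73 and 3.54, a log2 ratio of −0.38, so this gene was not 2-fold lower on that scale. MEIOB was at 36.0 CPM (32.5 to 39.9), 14.1-fold lower, and TEX11 at 18.5 CPM (15.9 to 21.3), 17.7-fold lower, both above granulosa cells. SPO11 was at 5.70 CPM (4.34 to 7.35) and MEI1 at 2.32 CPM (1.49 to 3.45). RAD51AP2, at 14.97 CPM (12.7 to 17.5), was 238-fold lower and below the granulosa level.

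Almost all of this comparison rests on ending 2, since 29 oocyte-marker cells carried ending 1. Among those, MEI1 was at 30.6 CPM (12.3 to 63.0) against 54.5 CPM in synaptonemal-high cells of that ending, a log2 ratio of −0.83 (−2.17 to 0.24). The other 8 genes were counted as at least 2-fold lower within that ending too, with MSH4 taken at its upper limit. MSH4 had no UMI in those 29 cells, which allows up to 13.1 CPM. In synaptonemal-high cells of that ending it was at 27.1 CPM (22.1 to 32.9). The lower end of that interval is less than 2-fold above the limit, so MSH4 was not shown to be 2-fold lower there. Within ending 2 all 9 were at least 2-fold lower. The share over all genes was counted only with the endings pooled, so these counts by ending have no background.

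The wider recombination machinery was not uniform. Of 45 other genes on lists of the pathway with enough UMIs, 18 were at least 2-fold higher in synaptonemal-high than in premeiotic cells. The other 27 were within 2-fold, 0 were lower, and the median log2 ratio was 0.67. The background over all genes, here and for the single lists, is 14.3% at least 2-fold higher and 16.2% lower. All 4 tested partners of SPO11 were higher. These were CCDC36, also known as IHO1 (log2 ratio 3.04), ANKRD31 (1.80), C11orf80, the TOPOVIBL subunit (1.45), and REC114 (1.30). Their levels in premeiotic and synaptonemal-high cells were 14.4 and 118 CPM for CCDC36 and 83.0 and 289 CPM for ANKRD31. MEI4, another partner, had too few UMIs for that count, with 23 in premeiotic and 21 in synaptonemal-high cells.

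Among hotspot chromatin genes, 3 of 5 were higher. ZCWPW1, a reader of the mark that PRDM9 writes, was at 264 and 1424 CPM, a log2 ratio of 2.43. ZCWPW2 (2.13) and the chromatin remodeller HELLS (1.36) were also higher, while CXXC1 (0.14) and EHMT2 (−0.48) were within 2-fold.

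Of strand exchange genes, 4 of 13 were higher. They were TEX15 (3.05), MCMDC2 (2.40), C19orf57, also known as BRME1 (2.22), and the recombinase loader BRCA2 (1.13). MND1 and PSMC3IP, which encode a complex that assists DMC1, had log2 ratios of 0.67 and 0.18, where DMC1 had 3.84. Of 8 resection and signalling genes, among them MRE11, NBN, ATM and BRCA1, 0 were past 2-fold in either direction, and their log2 ratios ran from −0.98 (NBN) to 0.96 (RBBP8).

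Of 15 crossover genes, 7 were higher. CNTD1, a cyclin-like crossover factor, was at 5.48 and 199.7 CPM, a log2 ratio of 5.19 (4.77 to 5.63). SHOC1 (3.88), C1orf146, also known as SPO16 (3.01), and the helicase HFM1 (2.57) followed. The ubiquitin and SUMO ligase family members RNF212 (2.21), CCNB1IP1 (1.80) and RNF212B (1.03) were higher as well. The other 8 were within 2-fold. Among them were MLH3, BLM, MUS81 and FANCM, which also act in mitotic repair, and also PRR19, M1AP and HELQ.

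In oocyte-marker cells 25 of 46 pathway genes were at least 2-fold lower than in synaptonemal-high cells, against 25.0% over all genes. Of the others 2 were higher, against 19.9% over all genes, and 19 were within 2-fold. The lower ones included CNTD1 (−5.55), CCDC36 (−5.40), SHOC1 (−5.22) and MCMDC2 (−4.21). The 2 higher ones were EHMT2, at 38.1 and 187 CPM (2.30), and MEI4, at 3.35 and 11.9 CPM (1.83, from 21 and 123 UMIs). C1orf146, at 110 and 59.3 CPM (−0.89), and C11orf80, at 27.1 and 24.6 CPM (−0.14), stayed within 2-fold although each was higher in synaptonemal-high than in premeiotic cells.

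**Figure D5:**
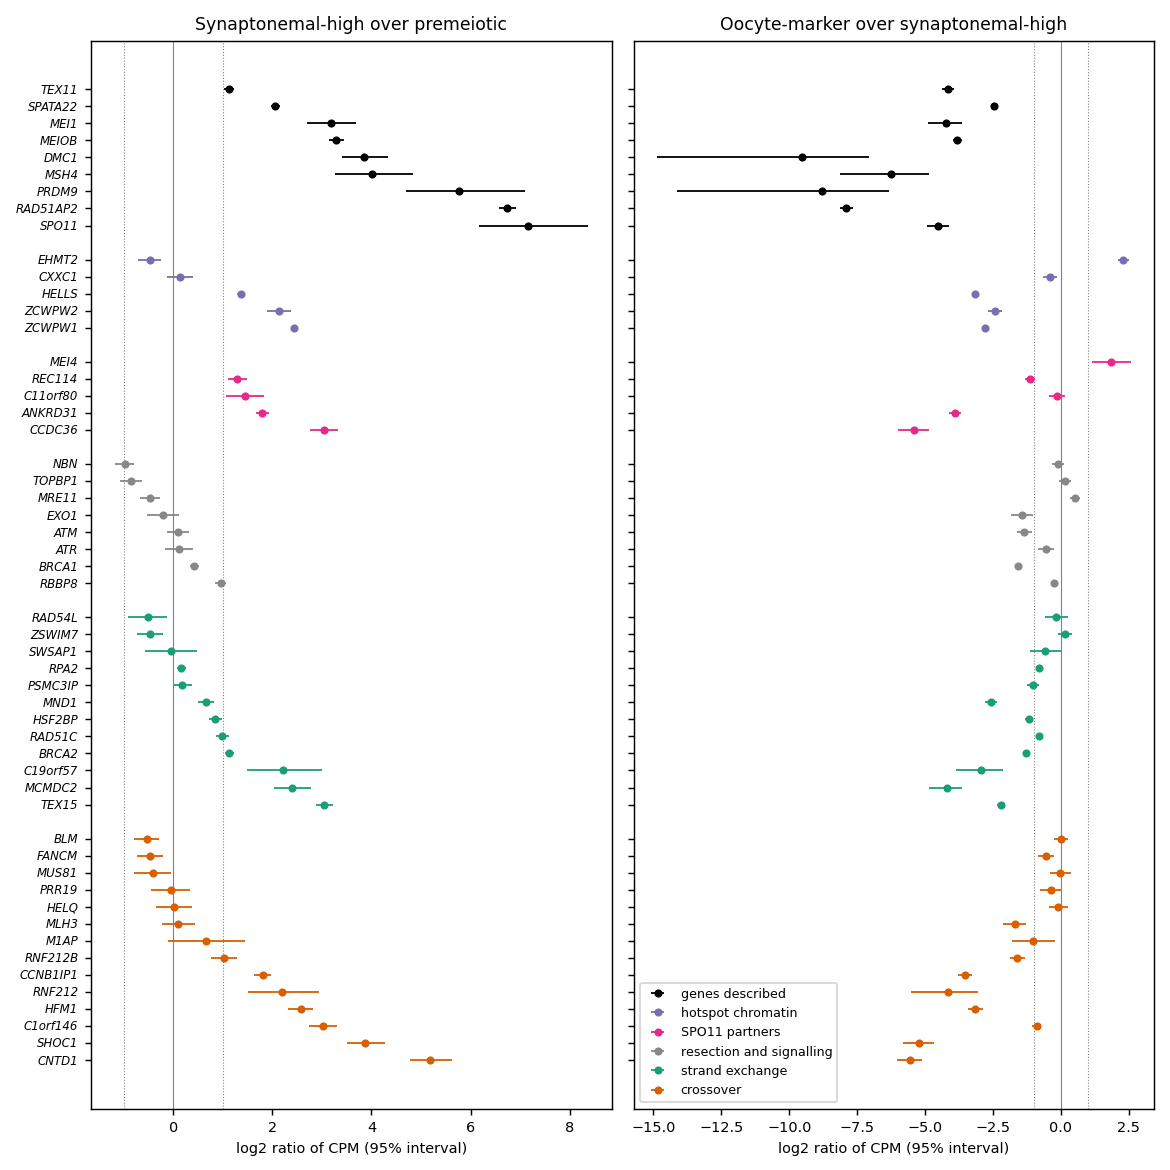
Log2 ratio of CPM, with exact 95% intervals, for the 9 genes (black) and the pathway genes by list, in synaptonemal-high over premeiotic cells (left) and oocyte-marker over synaptonemal-high cells (right). Dotted lines mark 2-fold. All 9 genes lie past 2-fold on both sides, while the 8 resection and signalling genes lie within 2-fold on the left.

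Over the 15 bins, the genes of the set were compared with every gene of at least 100 UMIs in germ cells by the Pearson r of log2(CPM + 5). This is a description, since the bins share libraries and were ordered by marker UMIs. The gene most like SPO11 was the transcription factor gene MYBL1 (r = 0.995), followed by EEA1 (0.993) and FBXO47 (0.992). For DMC1 they were NCAPG2 (0.992), EIF2B3 (0.992) and SYCE2 (0.991), the last of which is itself one of the ordering markers. For PRDM9 they were KIF1A (0.986), BUD31 (0.983) and MSH4 (0.982), and for MSH4 the meiotic cohesin gene RAD21L1 (0.987), PDE6D (0.986) and SLC5A1 (0.986).

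RAD51AP2 was most like SPDYA (0.991), DPP8 (0.991) and SUGP2 (0.990). MEIOB was most like CCDC122 (0.993), ENSMFAG00000031138 (0.992) and CDK12 (0.992), and SPATA22 like CNTRL (0.994), CLUAP1 (0.993) and TOMM20L (0.990). MEI1 was most like ENSMFAG00000035558 (0.989), XAGE3 (0.987) and the crossover gene SHOC1 (0.984). TEX11 was most like ANKRD11 (0.989), SPRYD7 (0.989) and FAM149B1 (0.988). Within the set, PRDM9, DMC1 and MSH4 were alike over the bins, with r of 0.970 for PRDM9 and DMC1 and 0.980 for DMC1 and MSH4. RAD51AP2 and MEIOB had 0.985, MEIOB and SPATA22 0.982. The pair least alike was SPO11 and TEX11, with 0.691. Many genes outside the set had r as high. Among the genes most like DMC1, PRDM9 had rank 37, and among those most like SPO11, RAD51AP2 had rank 221 with r of 0.949.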

How the data were processed

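Single-cell libraries of fetal ovaries at E84 and E116 (1 library each) were made with the 3′ kit v3. Cell Ranger 3.0.2 is named in the submitters' processing notes. The authors used Macaca_fascicularis_5.0 as reference genome and deposited raw UMI counts per gene and cell in 1 table. Doublets and free RNA were not removed here, since no step for either is stated for the table, and granulosa and stromal cells are given as background. Cells over 3000 genes, which the study removed, were kept.

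Counts were summed per group of cells and scaled to CPM. Intervals are exact Poisson (CPM), exact conditional binomial (ratios) and Clopper-Pearson (shares), all at 95%, with 3 counts as the limit at 0. They cover counting error only. Ratios were counted at 2-fold over genes with at least 50 UMIs in both groups together. Cells were thinned without replacement. Depth ran to 59899960 UMIs in barcodes ending in 1 and 88924217 in ending 2. The ratio intervals were tested on simulated Poisson counts, which hold no further spread between cells. The thinning was checked on the real cells against the counts expected from their own UMIs.

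Groups of somatic cells had under 5 germ and stage marker UMIs per 10000 and 1 somatic list over its threshold (10 UMIs per 10000 for granulosa and 100 for stroma). Of germ cells, 660 fell in no stage group. The genes, marker lists and pathway lists were chosen with earlier results of these data known. The pathway genes named are those past 2-fold between premeiotic and synaptonemal-high cells, at most 20, and for each gene the 3 most like it over the bins. Some genes counted on the pathway lists are not reported here by name. Other pathway genes named were chosen after their values were seen. Alternatives were other limits on cells, each ending alone, other scalings, gate thresholds and marker lists. Computations used pandas 2.3.3, scipy 1.17.1 and numpy 2.4.6, and plots matplotlib 3.10.9, under Python 3.11.15. Pseudotime, cell clusters and differences between stages were not analysed here.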

Additional observations from a re-analysis of the deposited data

How the results depend on the processing

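The counts of genes past 2-fold stayed within 1.5 times under every alternative run. Apart from the 4-fold limit, the share over all genes was not counted under these alternatives. For synaptonemal-high over premeiotic cells the count of 9 was 8 at 4-fold or with doubled gate thresholds and 7 as UMIs per cell, where TEX11 turned to −0.33 and SPATA22 was at 0.60. For oocyte-marker over synaptonemal-high cells it was 8 in barcodes ending in 1, without MEI1, and 8 as UMIs per cell, without SPATA22. The count in barcodes ending in 1 includes MSH4, which had no UMI in those oocyte-marker cells and was counted at its upper limit. The median log2 ratio ran from 2.38 to 4.08 in the first comparison and from −5.97 to −2.41 in the second, with the values nearest 0 as UMIs per cell. Of 126 single ratios in the first comparison 81 stayed within the interval of the reported value, 44 lay outside it in the same direction and 1 was reversed. In the second 67 stayed within it and 59 lay outside. UMIs per cell, a minimum of 500 UMIs, leaving out the shared barcodes and the matched range of synaptonemal UMIs were chosen after seeing the data. No paired analysis was possible because the table holds no replicates and its cells were not assigned to samples. Depth limits PRDM9, MSH4 and DMC1 most, whose levels in oocyte-marker cells rest on 1 to 4 UMIs.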
